A study of Mus musculus with 4 samples.

Results

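The genes described here are 52 genes of DNA damage signalling and DNA repair, taken from a fixed list by gene symbol. They were measured in cultured mouse prostate cells labelled as fibroblasts. All 52 were found among the 56748 gene rows of the count table, and all 52 averaged 1 CPM or more over the 4 libraries, as did 14365 genes in all. CPM is the read count of a gene relative to the size of its library, scaled for library composition with TMM factors. The 4 bulk RNA libraries, 1 per condition, came from unirradiated cells labelled PBS (phosphate-buffered saline) or BuOE, and from irradiated cells labelled PBS or BuOE. All animals, by the labels, were male C57BL/6 mice of 8 to 10 weeks (the genotype field spells the strain CB57BL/6). The irradiated animals had received 37.5 Gy to the pelvis, with the rest of the body shielded by lead, as fractions of 7.5 Gy over 5 days at 1.2 Gy per minute. Collagenase freed the cells from minced prostate, and they grew in medium with serum before RNA was taken, so every level below is that of cells in culture. BuOE is part of the chemical name of the manganese porphyrin radioprotector that the series title names. Its dose, its timing and whether animals or cultures received it are not given in the labels used here, nor is the number of animals behind a library.

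Cells answer DNA damage in layers. Breaks are sensed by protein complexes and marked on chromatin, the kinases ATM and ATR pass the signal on to checkpoint kinases, and repair follows by a route that depends on the lesion and on the phase of the cell cycle. Homologous recombination copies the intact sister chromatid and works in S and G2 phase, and many of its genes are transcribed mainly in dividing cells. Non-homologous end joining rejoins broken ends in all phases, while excision and mismatch repair remove damaged or mispaired bases.

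Total counts lay between 24996835 and 35915448 reads per library, and a floor of 3 counts equals 0.0842 to 0.123 CPM. Since each condition has a single library, the ratios below carry no replicate error and no test. Each ratio is a log2 ratio of 2 libraries, the range after it is its 95% exact binomial interval, and intervals and floors cover counting error only. Summed markers of fibroblasts (8 genes) ranged from 5295 to 9272 CPM, and those of epithelial cells (8 genes) from 3434 to 4991 CPM, so epithelial transcripts were present in all 4 libraries labelled as fibroblasts. These sums are not scaled for transcript length, so they do not rank the 2 cell types. Per kilobase of transcript, the highest epithelial marker, Krt18, averaged 552 CPM and the highest fibroblast marker, Col3a1, 300 CPM. In bulk RNA, fewer cells of a type and less RNA per cell cannot be told apart. Leukocyte markers (6 genes) summed to 119 to 213 CPM, led by the macrophage marker Cd68.

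The start sites of the 52 genes were searched for E2F motifs. E2F factors are the transcription factors that switch on S phase genes. The motif was searched as the letters TTCCCGC, or else TTGGCGC, or else TTCGCGC, or finally TTGCCGC, on both strands, from 250 bases before to 50 bases after each start site in RefSeq's promoter table (build GRCm38.p6, not the GRCm39 build of the counts). Matches may overlap each other, as they do in the Msh3 window. Of the 52 genes, 43 had a window by symbol, and 25 of these (58.1%) held the motif, against 19.1% of the 10720 expressed genes (mean 1 CPM or more) with a window, and 10.9% of all 27025 genes with one. At least 1.5-fold lower in both BuOE libraries than in their PBS counterparts were 17 genes. Of these, 12 had a window and 9 held the motif. Of the other 35 genes, 31 had a window and 16 held the motif. A second cell cycle motif, CHR, searched as TTTGAA or else as TTCGAA on both strands, was in 6 of the 43 windows (14.0%), against 16.3% of the expressed genes. A match is a description of the letters and not a shown binding site. The part of E2F factors in the levels below was not tested. Shown first are sites of some of the 9 genes lower in both BuOE pairs that held the motif. Bard1 and Rad51c held it too and are not printed. Each site is read 5′ to 3′ on the gene's strand with the motif in capitals.
Chek1 at chr9:36726609-36726638, minus strand: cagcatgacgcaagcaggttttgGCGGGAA
Brca1 at chr11:101551916-101551945, minus strand: gctagcgctagGCGCCAAgcggccggtttc
Brca2 at chr5:150522442-150522471, plus strand: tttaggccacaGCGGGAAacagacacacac
Rad51ap1 at chr6:126939557-126939586, minus strand: tctggttttcgGCGGGAAttgaaaccgcca
Fanci at chr7:79392345-79392374, plus strand: cgtggagtagaGCGGGAAttttggaaggat
Brip1 at chr11:86201179-86201208, minus strand: aggggcgggagGCGCGAAttcatctgtgtg
Polq at chr16:37011785-37011814, plus strand: tgaagatggagGCGGGAAgatggaggcggt
The motif's first base was position 13 of the Rad51ap1 transcript, 11 of Polq, 19 of Fanci, 22 of Brca1 and 44 of Chek1, counting the start site as 1. In Brip1 it lay 4 bases before the start site and in Brca2 168 bases before it. For comparison, these are sites of some of the 16 genes that held the motif and were not lower by 1.5-fold in both pairs.
Xrcc6 at chr15:82016312-82016341, plus strand: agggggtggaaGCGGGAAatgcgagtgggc
Msh6 at chr17:87975055-87975084, plus strand: tcctcccgactTTCCCGCcagcggcggccg
Rnf8 at chr17:29614754-29614783, plus strand: cacctgcgcacTTCCCGCccgcctcccgct
Ercc5 at chr1:44147664-44147693, plus strand: caagtgtcaacGCGGGAAtcccaaccctcg
Xrcc6, Rnf8 and Ercc5 held the motif before the start site, and Msh6 held it at position 17 of the transcript. Genes on both sides of the comparison therefore carried the same letters.

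The first comparison sets each BuOE library against the PBS library of the same radiation state, and it holds the largest differences of these genes. Genes of homologous recombination and of interstrand crosslink repair were lower in both BuOE libraries, with median ratios of -1.06 and -1.22 without radiation and -1.50 and -1.56 after it. Base excision, nucleotide excision and mismatch repair genes lay much nearer 0 in both pairs, with group medians from -0.40 to -0.02. The nucleotide excision genes Xpa and Ercc5 were higher. Of the classical end joining genes, Xrcc5, Prkdc and Lig4 lay near 0 without radiation only (-0.11, -0.01 and -0.07). After it they had ratios of -0.64, -0.58 and -0.51. Xrcc6 was at -0.44 without radiation and -0.60 after it. Xrcc4 and Nhej1 had ratios between -0.34 and -0.21 over both pairs. Over all 52 genes the median was -0.48 without radiation and -0.54 after it, against -0.01 and -0.07 over all 14365 genes. Without radiation 20 of the 52 genes (38.5%) were at least 1.5-fold lower, against 10.6% of all genes, and 1 was higher, against 16.0%. After radiation 25 (48.1%) were lower, against 14.6%, and 2 were higher, against 11.0%. The pairs share no library. Lower by 1.5-fold in both pairs were 17 genes (32.7%), against 5.46% of all genes: 10 of 12 recombination genes, all 4 crosslink repair genes, and Chek1, H2afx and Polq. Xpa was the only one of the 52 that was 1.5-fold higher in both, against 5.23% of all genes.

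**Figure D1:**
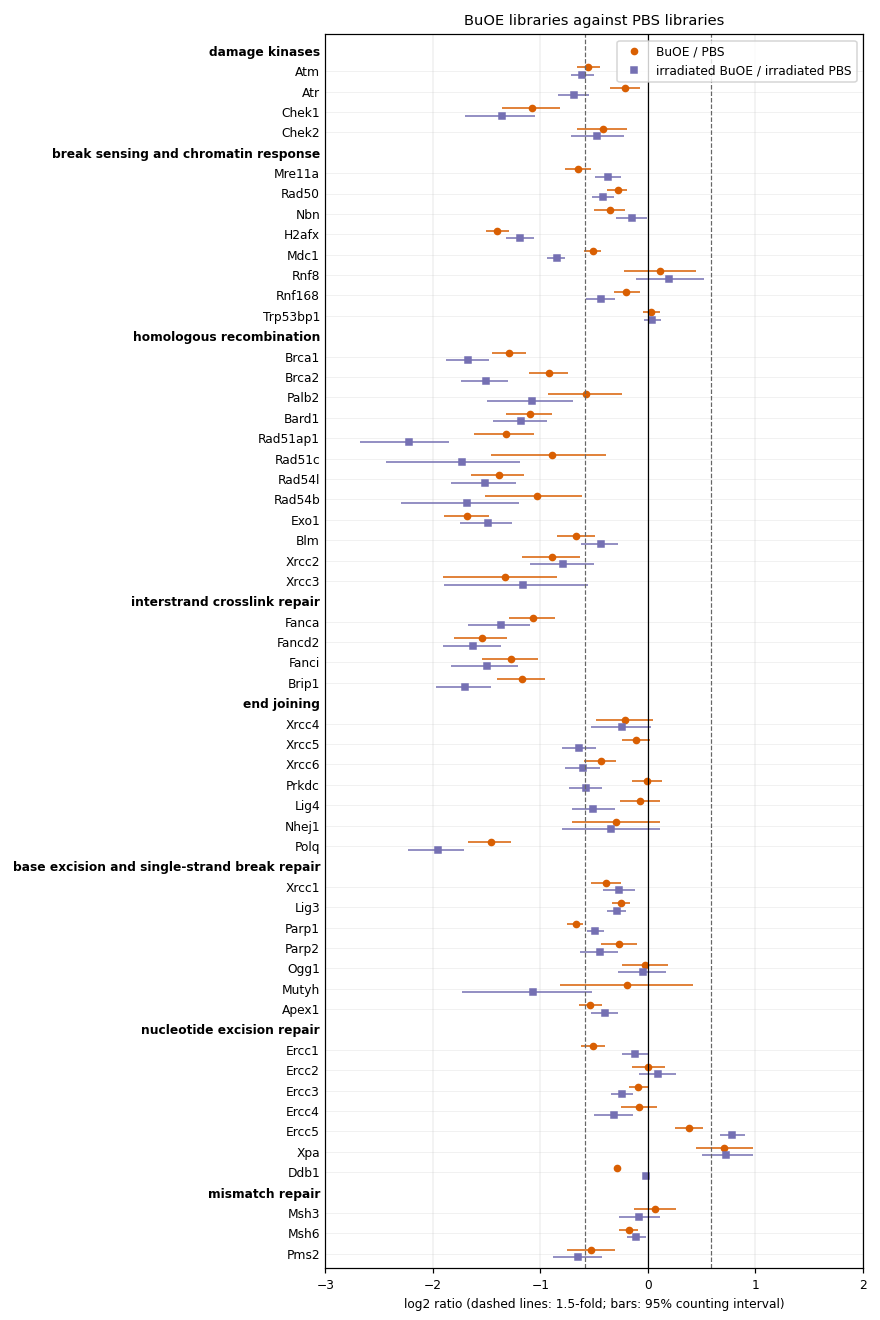
log2 ratio of each of the 52 genes between the BuOE and PBS libraries without radiation (circles) and between the irradiated BuOE and irradiated PBS libraries (squares), grouped by pathway. Bars are 95% counting intervals and dashed lines mark 1.5-fold; the 12 recombination and 4 crosslink repair genes all lie left of 0 in both pairs, from -0.44 to -2.22.

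Proliferation markers were lower in the same libraries. All 32 markers listed (among them Mki67, Top2a, cyclins and the Mcm helicase genes) had ratios below 0 in both pairs, with medians of -1.38 and -1.54, and 30 of 32 were at least 1.5-fold lower in both. Their summed level was 3417 CPM in the PBS library, 2957 in the irradiated PBS library, 1383 in the BuOE library and 1123 in the irradiated BuOE library. Mki67, the gene of the Ki-67 protein of cycling cells, stood at 446, 438, 169 and 112 CPM in that order. Of the 16 recombination and crosslink repair genes, 15 had ratios within the range of the markers in each pair: Palb2 lay above it without radiation and Rad51ap1 below it after radiation. That range ran from -1.77 to -0.59 without radiation and held 20 of all 52 genes. Its upper end lay at the 1.5-fold limit, and these were the same 20 genes that were at least 1.5-fold lower. Lying within it without radiation therefore adds nothing to that count. After radiation the range ran from -2.09 to -0.09, with its upper end set by Cdt1 alone. It held 43 of the 52 there, so lying within it sets no pathway apart. The part of cell division in the lower levels was not tested.

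Markers of other cell types differed between the same libraries. Summed epithelial markers (8 genes) were 4169 CPM in the PBS, 3434 in the irradiated PBS, 4991 in the BuOE and 4955 in the irradiated BuOE library, so both BuOE libraries lay above both PBS libraries. Their median ratio was 0.44 without radiation, with 2 of 8 at least 1.5-fold higher, and 0.61 after it, with 5 of 8. Summed leukocyte markers were 127, 119, 163 and 213 CPM in the same order, again higher in both BuOE libraries. Of the 4 leukocyte markers averaging 1 CPM or more, 0 were 1.5-fold higher without radiation and 4 after it, Cd68 at 65.4, 64.8, 85.7 and 126 CPM among them. Summed adipocyte markers (5 genes) were 304 CPM in the PBS library and 43.0 to 73.7 in the others, with Adipoq at 0 in the BuOE library. Summed endothelial markers (5 genes) were 379 CPM in the PBS, 622 in the irradiated PBS, 531 in the BuOE and 562 in the irradiated BuOE library. Summed neuron and Schwann cell markers (8 genes) were 22.3 CPM in the PBS, 371 in the BuOE, 145 in the irradiated PBS and 70.4 in the irradiated BuOE library, so they were higher with BuOE without radiation and lower with it after radiation. Summed fibroblast markers were lower in the irradiated BuOE library (5295 CPM) than in the irradiated PBS library (9272 CPM). Without radiation they were similar (6321 CPM with BuOE and 6210 with PBS). The 8 genes did not move together. After radiation 5 were at least 1.5-fold lower with BuOE, against 14.6% of all genes, the collagen genes Col1a1, Col1a2 and Col3a1 among them. Dcn (1324 against 994 CPM) and Pdgfra (1048 against 893 CPM) had ratios above 0 there. Mitochondrially encoded mRNAs took 2.64% of the counts in the irradiated BuOE library and 0.403% to 0.864% in the others. The part of these cell type markers and of the mitochondrial share in the levels of the repair genes was not tested.

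**Figure D2:**
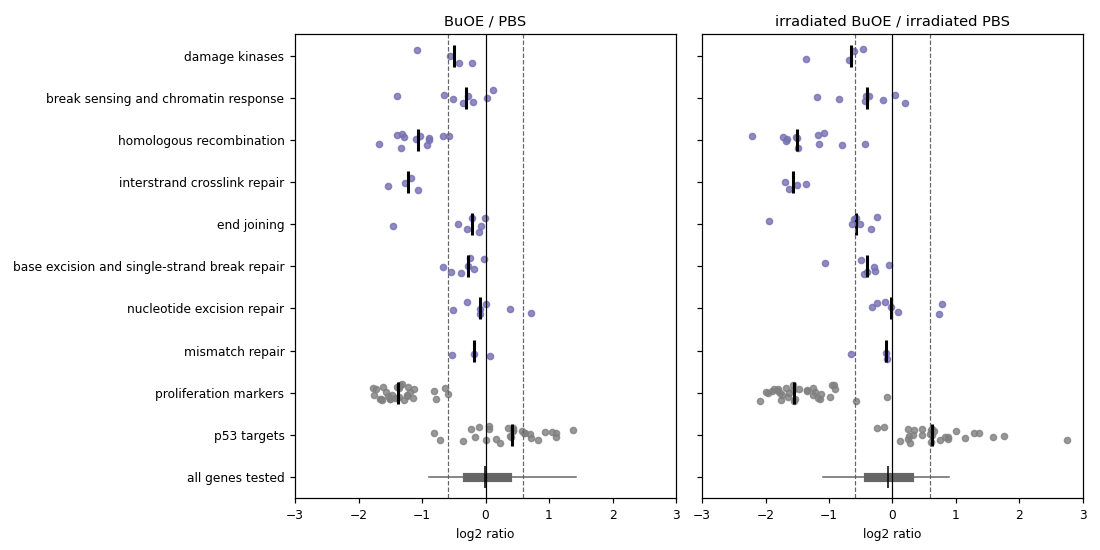
log2 ratios of the genes of each pathway, of 32 proliferation markers and of 28 p53 targets in the BuOE pair without radiation (left) and with radiation (right). Points are genes and black ticks medians; the bottom row shows the 5th to 95th percentile (line), the quartiles (box) and the median of all 14365 genes, and dashed lines mark 1.5-fold. Medians of recombination (-1.06, -1.50) and crosslink repair genes (-1.22, -1.56) lie near those of the proliferation markers (-1.38, -1.54).

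Among the recombination genes, Brca1, whose protein helps prepare broken ends for recombination, stood at 37.4 CPM in the PBS library, 32.5 in the irradiated PBS, 15.3 in the BuOE and 10.2 in the irradiated BuOE library. Both BuOE libraries lay below both PBS libraries, by 2.44-fold without radiation (-1.29, -1.45 to -1.13) and 3.18-fold after it (-1.67, -1.88 to -1.48). Its partner Bard1 showed 19.0, 16.4, 8.84 and 7.20 CPM in the same order. Brca2, a tumour suppressor gene needed for recombination, showed 22.4, 24.5, 11.8 and 8.56 CPM, with ratios of -0.92 (-1.11 to -0.74) and -1.51 (-1.74 to -1.30). In both genes the 2 PBS libraries were close to each other and the irradiated BuOE library was the lowest. Palb2, the bridge between these proteins, was expressed at 6.03, 6.23, 4.02 and 2.92 CPM, and passed 1.5-fold only after radiation (-1.08, -1.50 to -0.70). The value without radiation was -0.58 (-0.93 to -0.24), just inside the limit of -0.58 that 1.5-fold sets.

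The lowest ratio of each pair was that of a recombination gene. Rad51ap1, which stimulates strand invasion, stood at 12.4 CPM in the PBS, 11.2 in the irradiated PBS, 4.91 in the BuOE and 2.35 in the irradiated BuOE library. Its ratio after radiation, -2.22 (-2.68 to -1.85), was the lowest of the 52 genes. The translocase gene Rad54l showed 16.3, 13.8, 6.20 and 4.77 CPM, with ratios of -1.39 (-1.65 to -1.15) and -1.52 (-1.83 to -1.23). Exo1, a nuclease that resects broken ends, showed 25.9, 20.0, 8.05 and 7.08 CPM, and its ratio without radiation, -1.68 (-1.90 to -1.48), was the lowest of the 52 in that pair. In these 3 genes both BuOE libraries lay below both PBS libraries, as in 82.7% of the 52 genes and 29.8% of all genes. The recombination gene Xrcc2 stood at 10.9, 9.21, 5.84 and 5.31 CPM. The 3 recombination genes with the lowest levels were also lower in both pairs: Rad54b (4.33, 4.77, 2.08 and 1.44 CPM), Rad51c (2.93, 3.85, 1.55 and 1.11 CPM) and Xrcc3 (3.75, 2.47, 1.45 and 1.07 CPM). The helicase gene Blm differed least of the 12 after radiation, and only Palb2 differed less without it. Blm stood at 22.4, 24.4, 14.1 and 17.9 CPM, a ratio of -0.67 (-0.85 to -0.49) without radiation and -0.44 (-0.62 to -0.28) after it.

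The crosslink repair genes behaved alike. Fancd2 and Fanci encode the pair of proteins that is ubiquitinated at crosslinks. Fancd2 stood at 17.6 CPM in the PBS, 17.8 in the irradiated PBS, 6.00 in the BuOE and 5.72 in the irradiated BuOE library, ratios of -1.54 (-1.80 to -1.31) and -1.63 (-1.91 to -1.37). Within each treatment the 2 radiation states were nearly equal. Fanci showed 13.8, 12.8, 5.67 and 4.49 CPM, and Fanca, of the complex that attaches ubiquitin, 18.1, 13.7, 8.61 and 5.27 CPM. Brip1, a helicase that binds BRCA1, showed 19.3, 21.0, 8.51 and 6.42 CPM, with ratios of -1.17 (-1.40 to -0.96) and -1.70 (-1.97 to -1.46).

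Of the 4 kinase genes, Chek1, which restrains cells with unreplicated or damaged DNA, was the one lower in both pairs. It stood at 11.8 CPM in the PBS, 10.9 in the irradiated PBS, 5.54 in the BuOE and 4.24 in the irradiated BuOE library, ratios of -1.08 (-1.36 to -0.82) and -1.36 (-1.70 to -1.05). Chek2, the partner of ATM, differed less, at 11.7, 11.5, 8.74 and 8.27 CPM (-0.42, -0.66 to -0.19, and -0.47, -0.72 to -0.22). Atm itself showed 64.3, 58.2, 43.7 and 38.2 CPM, with ratios on either side of the 1.5-fold limit (-0.56, -0.66 to -0.45, and -0.61, -0.72 to -0.50). Atr, which answers stalled replication, showed 29.4, 36.2, 25.5 and 22.4 CPM, a ratio of -0.21 (-0.35 to -0.07) without radiation and -0.69 (-0.84 to -0.55) after it. All 4 kinase genes had both BuOE libraries below both PBS libraries, as did 82.7% of the 52 genes and 29.8% of all genes.

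The genes that sense and mark breaks were mixed. H2afx encodes the histone variant that is phosphorylated around breaks. It stood at 81.0 CPM in the PBS, 57.6 in the irradiated PBS, 30.7 in the BuOE and 25.3 in the irradiated BuOE library, ratios of -1.40 (-1.51 to -1.29) and -1.19 (-1.32 to -1.06). Mdc1, whose protein reads that mark, showed 115, 113, 80.3 and 62.7 CPM (-0.51, -0.59 to -0.44, and -0.85, -0.94 to -0.77). Trp53bp1, which favours end joining over resection, showed 83.3, 82.0, 85.2 and 84.4 CPM and was level across the 4 libraries, with ratios of 0.03 (-0.05 to 0.11) and 0.04 (-0.04 to 0.12). In the sensor complex, Mre11a stood at 47.5, 46.0, 30.4 and 35.7 CPM and had a lower ratio without radiation (-0.65, -0.77 to -0.53) than after it (-0.37, -0.49 to -0.25). Its partners Rad50 and Nbn had ratios between -0.42 and -0.15. Of the ubiquitin ligase genes, Rnf168 had ratios of -0.20 and -0.44 and Rnf8 of 0.11 and 0.20, the latter with intervals that include 0.

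End joining separated into 2 parts. Polq, the polymerase of an alternative route that uses short homologies, stood at 26.4 CPM in the PBS, 23.3 in the irradiated PBS, 9.53 in the BuOE and 5.97 in the irradiated BuOE library, ratios of -1.46 (-1.67 to -1.27) and -1.95 (-2.23 to -1.71). Of the classical genes, Prkdc, Lig4 and Xrcc5 were close to level without radiation. Prkdc, the DNA-dependent kinase, showed 27.6, 32.7, 27.3 and 21.9 CPM, a ratio of -0.01 (-0.15 to 0.13) without radiation and -0.58 (-0.73 to -0.43) after it. Lig4, the ligase, showed 16.4, 18.2, 15.6 and 12.8 CPM (-0.07, -0.26 to 0.11, and -0.51, -0.71 to -0.31). The Ku subunit gene Xrcc5 showed 34.2, 31.2, 31.6 and 20.0 CPM (-0.11, -0.24 to 0.02, and -0.64, -0.80 to -0.48), and the other, Xrcc6, 9.09, 8.67, 6.69 and 5.69 CPM per kilobase of transcript (-0.44, -0.59 to -0.30, and -0.60, -0.77 to -0.45). In Prkdc, Lig4 and Xrcc5 the irradiated BuOE library lay below the other 3. In Prkdc the irradiated PBS library also stood apart, above the PBS library (0.25, 0.12 to 0.38). Xrcc4 and Nhej1 had ratios between -0.34 and -0.21, with intervals that include 0.

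Genes of base excision and single-strand break repair had ratios below 0 in both pairs in 7 of 7 cases, against 46 of the 52 genes (88.5%) and 37.4% of all genes, with medians of -0.27 and -0.40. Parp1, the sensor of strand breaks, stood at 127 CPM in the PBS, 104 in the irradiated PBS, 79.5 in the BuOE and 73.7 in the irradiated BuOE library (-0.67, -0.75 to -0.60, and -0.49, -0.57 to -0.41). Lig3, the ligase of this route, showed 84.0, 75.9, 70.6 and 62.1 CPM (-0.25, -0.33 to -0.17, and -0.29, -0.38 to -0.20). The glycosylase gene Ogg1, which removes oxidised guanine, was level at 11.6, 11.9, 11.4 and 11.5 CPM, and both its intervals include 0. Xrcc1, Parp2 and Apex1 had ratios between -0.54 and -0.27. Mutyh, at 1.67, 2.84, 1.45 and 1.32 CPM, passed 1.5-fold after radiation only (-1.07, -1.73 to -0.52).

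Nucleotide excision repair held the genes that were higher in the BuOE libraries. Xpa, which verifies the lesion, stood at 6.47 CPM in the PBS, 7.78 in the irradiated PBS, 10.6 in the BuOE and 13.0 in the irradiated BuOE library, ratios of 0.71 (0.45 to 0.98) and 0.73 (0.50 to 0.98). Ercc5, the nuclease that cuts on one side of the lesion, showed 28.1, 31.8, 36.6 and 54.8 CPM, ratios of 0.38 (0.25 to 0.51) and 0.78 (0.67 to 0.90). Both BuOE libraries were above both PBS libraries for Xpa and Ercc5, as for 5.77% of the 52 genes and 22.3% of all genes. Ddb1, an adaptor of a ubiquitin ligase that also recognises ultraviolet damage, was by far the most abundant of the 52, at 1142, 1049, 934 and 1036 CPM (-0.29, -0.31 to -0.27, and -0.02, -0.04 to 0.00). Ercc3, a helicase of the transcription factor TFIIH, showed 62.1, 58.8, 58.4 and 49.8 CPM (-0.09, -0.18 to 0.01, and -0.24, -0.34 to -0.14). Ercc1, Ercc2 and Ercc4 had ratios between -0.51 and 0.09. In mismatch repair, Msh6, a subunit that recognises single mismatches, stood at 70.6, 80.4, 62.3 and 74.8 CPM (-0.18, -0.27 to -0.09, and -0.11, -0.19 to -0.02) and Msh3, its alternative for larger loops, at 13.9, 16.2, 14.5 and 15.3 CPM with both intervals including 0. Pms2, of the nicking complex, was 1.5-fold lower after radiation only, at 13.8, 15.1, 9.57 and 9.59 CPM (-0.53, -0.75 to -0.31, and -0.65, -0.88 to -0.43).

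**Figure D3:**
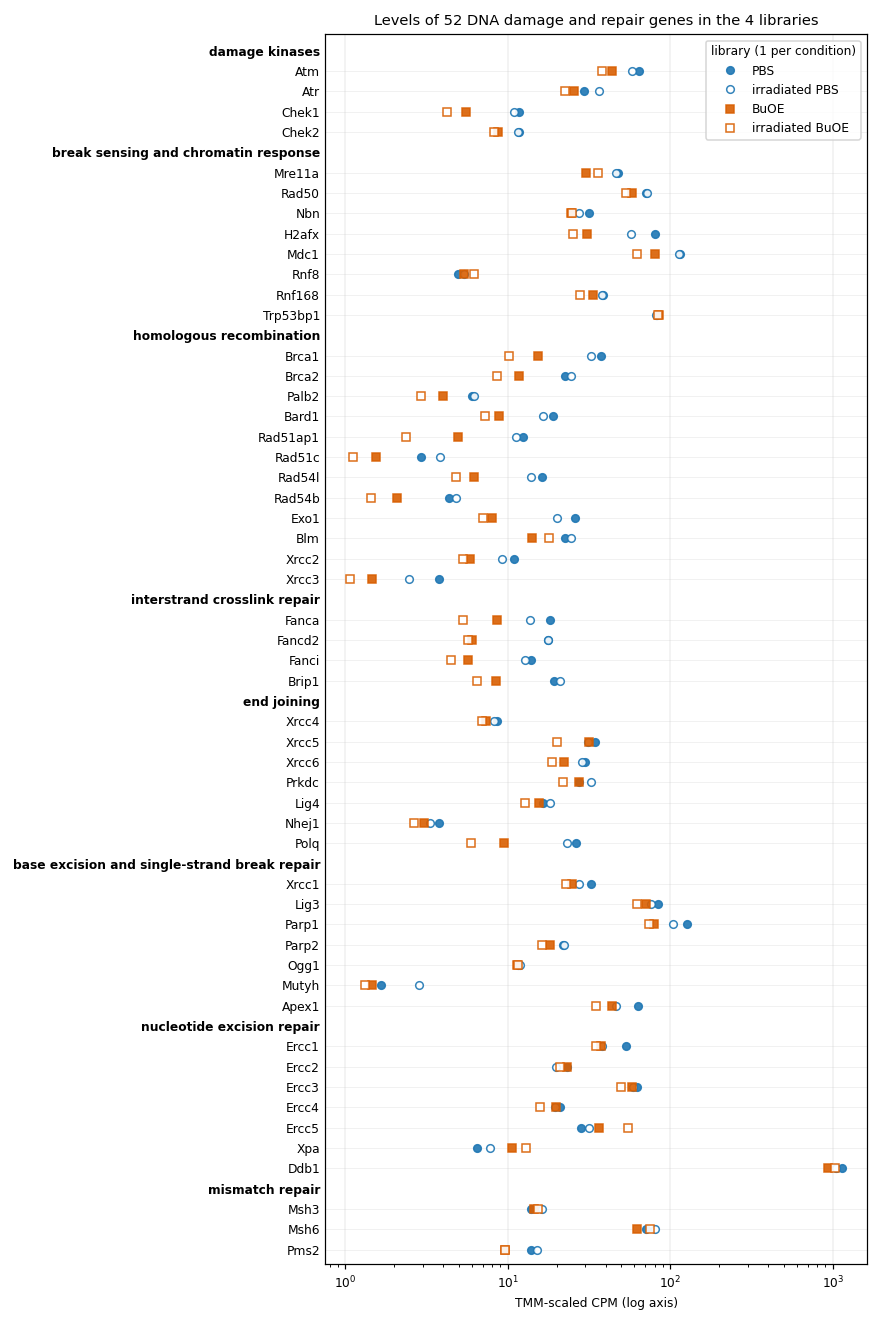
Level of each of the 52 genes in TMM-scaled CPM (log axis) in the PBS (filled circles), irradiated PBS (open circles), BuOE (filled squares) and irradiated BuOE (open squares) library, 1 library per condition. Squares lie left of circles for 43 of 52 genes and right of them for Trp53bp1, Ercc5 and Xpa; Ddb1, at 934 to 1142 CPM, stands above all others.

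Counting every gene, both BuOE libraries were below both PBS libraries for 43 of the 52 (82.7%), against 29.8% of all genes, and above them for 3 (5.77%), against 22.3%. The irradiated BuOE library was the lowest of the 4 for 39 of the 52, against 35.3% of all genes. Per kilobase of the longest annotated transcript, the mean level over the 4 libraries ran from 233 CPM per kb for Ddb1, followed by Apex1 (38.0), H2afx (35.1), Ercc1 (29.8) and Parp1 (24.8), down to 0.598 for Rad51c. The recombination gene with the highest value was Blm (4.13), in rank 25 of 52. Across the 52 genes, Pearson's r between the ratios of the 2 BuOE pairs was 0.88, and 0.14 across all 14365 genes. These are descriptions across genes, which are not independent replicates. The correlation of the ratio with log2 transcript length was -0.16 without radiation and -0.23 after it.

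An additive model with a radiation term and a BuOE term over all 4 libraries was the only fit with a residual degree of freedom (1). That degree of freedom comes from how far the radiation ratio differs between BuOE and PBS, which the model takes as error. The p-values below, by any tool, therefore do not measure spread between replicates. By edgeR's quasi-likelihood test with Benjamini-Hochberg adjustment over 14365 genes, 0 of the 52 genes passed an adjusted p of 0.05 for BuOE, as did 0% of all genes. At an unadjusted p under 0.05, 26 of the 52 were lower with BuOE, against 11.5% of all genes, and 2 (3.85%) were higher, against 9.06%. The lowest adjusted p was 0.0908, shared by H2afx (-1.29) and Exo1 (-1.59) by the same edgeR test. DESeq2 called 12 of the 52, all lower (23.1%), against 2.99% of all genes for lower and 3.04% for higher: H2afx, Brca1, Brca2, Bard1, Rad51ap1, Rad54l, Exo1, Fanca, Fancd2, Fanci, Brip1 and Polq. It gave no adjusted p for 3 of the 52 and 1671 of the 14365 genes, which are counted here as not called. limma-voom called 0. The call of these genes thus depends on the tool. For radiation edgeR called 0 of the 52 (0% of all genes). At an unadjusted p under 0.05, 3 were lower (Apex1, H2afx and Fanca; 5.77% against 3.31% of all genes) and 0 higher (4.18% of all genes). DESeq2 called 0 of the 52 in either direction, against 0.223% of all genes for lower and 0.557% for higher, and limma-voom called 0.

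The second comparison sets each irradiated library against the unirradiated library of the same treatment. Differences of the repair genes were small. In the PBS arm the median ratio of the 52 genes was -0.07, against 0.00 over all genes. In that arm 1 gene was at least 1.5-fold lower (Xrcc3; 1.92% against 3.56% of all genes) and 1 higher (Mutyh; 1.92% against 10.9%), both with a mean under 5 CPM. In the BuOE arm the median was -0.19, against -0.03. There 5 genes were lower (9.62% against 11.3% of all genes), namely Rad51ap1, Fanca, Polq, Xrcc5 and Brca1, and 0 were higher (8.29% of all genes). No gene of the 52 passed 1.5-fold in the same direction in both arms, against 1.05% of all genes for lower and 2.19% for higher. Ratios were below 0 in both arms for 29 of the 52 (55.8%), against 30.5% of all genes, and above 0 in both for 8 (15.4%), against 27.1%. Proliferation markers had medians of -0.24 and -0.36 in the PBS and BuOE arms.

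**Figure D4:**
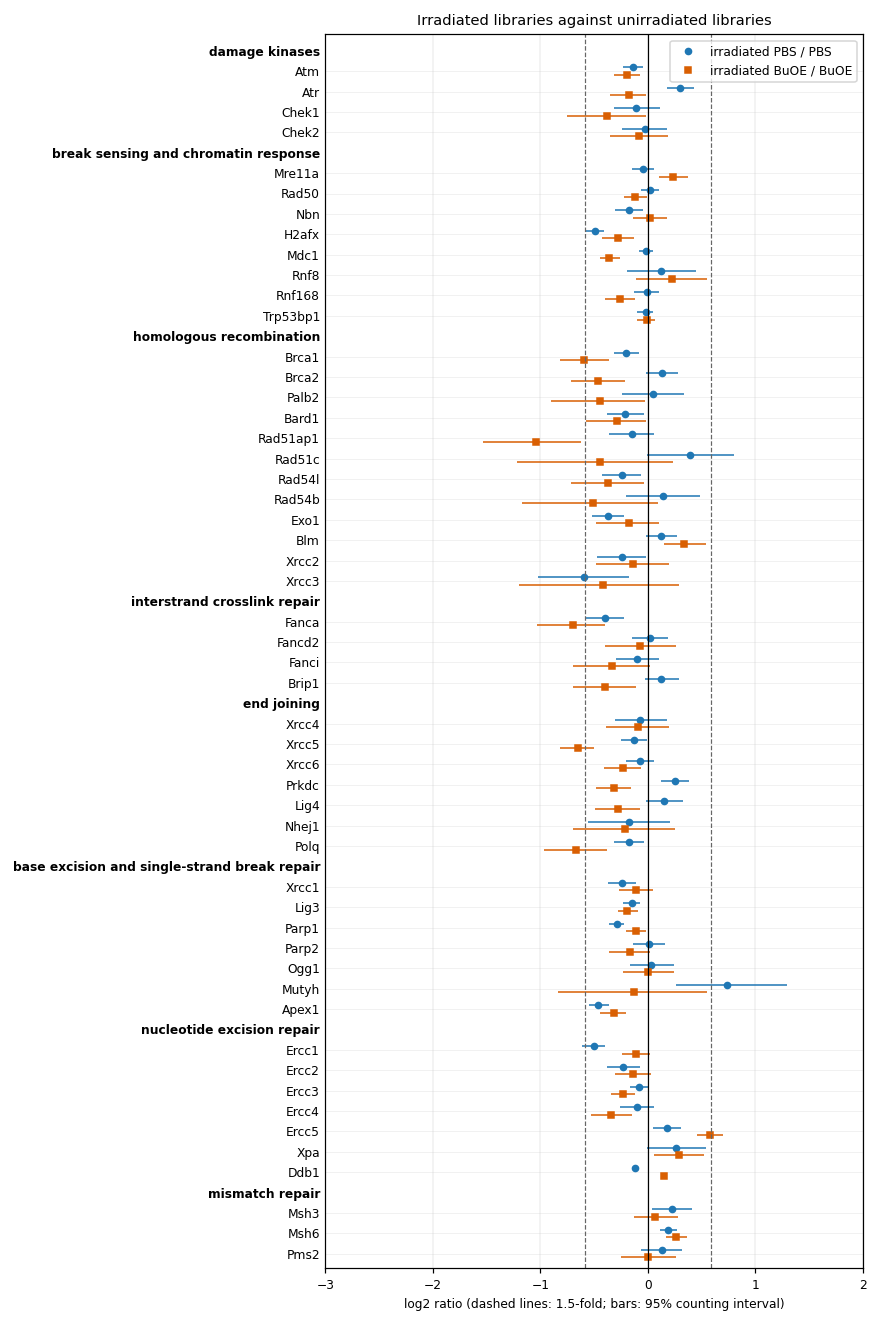
log2 ratio of each of the 52 genes between the irradiated and unirradiated PBS libraries (circles) and between the irradiated and unirradiated BuOE libraries (squares), grouped by pathway. Bars are 95% counting intervals and dashed lines mark 1.5-fold; most genes lie inside the dashed lines, and Rad51ap1 in the BuOE arm (-1.04) lies farthest from 0.

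By pathway, recombination genes had a median radiation ratio of -0.17 with PBS and -0.43 with BuOE, and crosslink repair genes of -0.04 and -0.37. In the PBS arm the clearest single differences by their counting intervals were lower levels of Ercc1, of the nuclease that cuts on the other side of the lesion (53.6 CPM without and 37.8 with radiation; -0.50, -0.61 to -0.40), of H2afx (-0.49, -0.58 to -0.41) and of Apex1, the endonuclease at abasic sites (63.4 and 46.2 CPM; -0.46, -0.55 to -0.36). These 3 genes were chosen after their values were seen. Brca1 was at -0.20 (-0.32 to -0.08) and Brca2 at 0.13 (-0.02 to 0.28). In the BuOE arm Rad51ap1 was at -1.04 (-1.53 to -0.62), Fanca at -0.70 (-1.03 to -0.40), Polq at -0.67 (-0.97 to -0.38), Xrcc5 at -0.65 (-0.82 to -0.50) and Brca1 at -0.59 (-0.82 to -0.36). Ercc5 had the highest ratio there, 0.58 (0.46 to 0.70), just under 1.5-fold. All 3 mismatch repair genes had ratios of 0 or above in both arms, with Msh6 at 0.19 (0.11 to 0.27) and 0.26 (0.17 to 0.36). Both irradiated libraries lay below both unirradiated ones for Xrcc5, Ercc2 and Ercc4 (5.77% of the 52, against 13.5% of all genes) and above them for Rnf8, Msh3 and Msh6 (5.77%, against 12.6%).

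Genes controlled by p53 are a usual sign of damage signalling. Of the 29 listed, 28 were matched and 1, written Tp53inp1, was not, since it is not the mouse symbol. Their median radiation ratio was 0.08 with PBS and 0.48 with BuOE. At least 1.5-fold higher with radiation were 3 in the PBS arm (10.7% against 10.9% of all genes) and 7 in the BuOE arm (25.0% against 8.29%). Ratios were below 0 for 13 of the 28 in the PBS arm and for 2 in the BuOE arm, against 7121 and 7728 of all 14365 genes. At least 1.5-fold lower with radiation were 1 in the PBS arm (3.57% against 3.56%) and 0 in the BuOE arm (11.3% of all genes). With BuOE against PBS, 10 were higher without radiation (35.7% against 16.0%) and 17 after it (60.7% against 11.0%). The medians were 0.41 and 0.61, and 2 were lower without radiation (7.14% against 10.6%). Cdkn1a, the cell cycle inhibitor, stood at 201 CPM in the PBS, 244 in the irradiated PBS, 354 in the BuOE and 591 in the irradiated BuOE library. Mdm2, the ligase that limits p53, showed 152, 130, 140 and 195 CPM. For both genes the irradiated BuOE library was the highest. The cause of these differences was not tested.

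The difference between the arms is the radiation ratio with BuOE minus that with PBS. It was at least 1.5-fold lower for 5 of the 52 (9.62%, against 15.5% of all genes) and higher for 0 (8.21% of all genes), with a median of -0.11 against -0.03. The 5 were Rad51ap1 (-0.90, -1.38 to -0.41), Mutyh (-0.88, -1.69 to -0.06), Rad51c (-0.84, -1.62 to -0.06), Rad54b (-0.65, -1.33 to 0.03) and Brca2 (-0.59, -0.88 to -0.30). No test of these differences is possible with 1 library per condition.

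A list of 80 other repair genes gave the setting. Without radiation 18 of 80 (22.5%) were at least 1.5-fold lower with BuOE (10.6% of all genes), and 24 were lower after radiation (14.6%). The counts were 6 of 14 for recombination and 5 of 11 for both checkpoint and crosslink genes without radiation, and 0 of 9 for break response, 0 of 6 for end joining and 0 of 12 for nucleotide excision genes. For radiation, 1 of 80 was lower (3.56% of all genes) and 2 higher (10.9% of all genes) in the PBS arm. With BuOE, 4 were lower (11.3% of all genes) and 4 higher (8.29% of all genes). Set against all genes, each of these counts was a smaller share of the 80 genes. Without BuOE, among those averaging 5 CPM or more, the lowest ratios were those of the nuclease subunit gene Eme1 (-0.65, -0.90 to -0.40), Recql4 (-0.35) and Clspn (-0.32). The highest there were Tdp2, which frees ends from trapped topoisomerase (0.62, 0.43 to 0.81), the glycosylase gene Mbd4 (0.56, 0.29 to 0.86) and the helicase gene Wrn (0.33). In the BuOE arm the lowest were Gen1 (-0.62), Fancg (-0.61) and Eme1 (-0.60, -1.10 to -0.15), and the highest Wee1, a kinase that delays mitosis (0.75, 0.63 to 0.88), Mbd4 (0.72, 0.44 to 1.02) and Rad52 (0.66). Eme1 was at the low end and Mbd4 at the high end in both arms.

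Some of the 52 genes share exon sequence with a neighbour, and no source used here says whether reads were counted by strand. By GENCODE M21, 61.7% of the exon bases of Apex1, 42.7% of Ercc2, 35.9% of Rad54b and 25.1% of Lig3 are also exons of another gene, so their values are uncertain. The share was 15.4% for Rad54l, close to that for Fanci, and 10.5% for Fanca, and at most 3.24% for the recombination and crosslink genes Brca1, Brca2, Rad51ap1, Exo1, Fancd2 and Brip1.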

How the data were processed

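The deposited values are whole-number counts of reads per gene in 4 libraries. Per the submitters' processing notes, the build was GRCm39 and the tools included Trim Galore (0.6.4), Salmon (1.4.0), featureCounts and edgeR (4.2.2), with no role or order stated. Strand and multi-mapped reads are not given in the sources used here. From these, CPM were computed with TMM factors of 0.972 to 1.05 (edgeR 4.0.16, R 4.3.3), and log2 ratios with a prior count of 2 for the 14365 genes averaging 1 CPM or more. Symbols, transcript lengths and exon overlaps came from GENCODE M21 by gene ID; 4675 of 56748 rows had no symbol and stayed in the totals (0.689% to 1.29% of counts).

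A gene was counted as higher or lower from 1.5-fold. The 4 comparisons have 1 library per side and no test. The additive model (biological coefficient of variation 0.279, estimated without replicates) used edgeR's quasi-likelihood test, with DESeq2 1.42.0 and limma 3.58.1 as alternatives. In simulated counts with that variation, the edgeR fit called 8 of 100 genes lowered 2-fold and 79 of 100 lowered by a log2 ratio of -2. Values per library are given for genes past 1.5-fold averaging 5 CPM or more, the 2 most expressed of each of 8 pathways and a fixed set; others are by range or as said. The 52 genes and all lists were chosen with earlier results of these data known.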

Additional observations from a re-analysis of the deposited data

Results flagged for a closer look

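In 3 genes the radiation ratio had opposite signs in the 2 arms, with counting intervals that exclude 0 on both sides; the difference between arms was not tested. Atr was at 0.30 (0.18 to 0.43) in the PBS arm and -0.18 (-0.35 to -0.02) in the BuOE arm, a difference of -0.48. Prkdc was at 0.25 (0.12 to 0.38) and -0.32 (-0.48 to -0.16), a difference of -0.56. Ddb1 was at -0.12 (-0.14 to -0.10) and 0.15 (0.12 to 0.17), a difference of 0.27 in the other direction.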

How the results depend on the processing

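The counts of genes 1.5-fold lower with BuOE, 20 and 25 of 52, and the 17 lower in both pairs stayed within 1.5 times of these values under DESeq2 size factors, library size alone, upper-quartile factors and a prior count of 0.5. The small counts moved. For radiation in the PBS arm, the 1 lower gene became 0 with library size alone, with a mean of at least 5 CPM and at 2-fold, and 3 where the whole interval had to pass a smaller fold; the 1 higher gene became 0 with a mean of at least 5 CPM, at 2-fold and with the interval rule. In the BuOE arm, the 5 lower genes became 2 with upper-quartile factors and 1 at 2-fold, and the 0 higher genes became 1 with DESeq2 size factors, upper-quartile factors and the interval rule. At 2-fold, 0 genes were higher with BuOE in either pair. The difference between the arms was 1.5-fold lower in 5 genes, but in 11 with library size alone and 3 with upper-quartile factors, which moved the median of all genes to -0.15 and 0.11; the alternatives for this difference and for both pairs were chosen after seeing the data. For the BuOE term, DESeq2 called 12 of 52 genes, and the cause of its difference from edgeR (0) was not tested. No gene past 1.5-fold changed sign under another scaling or prior. Leaving out a library would leave a condition empty, so it was not run. No paired analysis was possible because each condition has 1 library. Depth limits Mutyh, Rad51c, Xrcc3 and Rad54b most, with 26 to 170 counts per library.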
